A study of Homo sapiens with 6 samples.

Results

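The variable segments of the immunoglobulin light chains were followed in 2 cultured human cell lines labelled as lymphoma B cells. The first, LY19WT, was labelled EZH2 wild type. The other, LY19Y646F, was labelled as constitutively expressing the mutant EZH2-Y646F under a CMV promoter. EZH2 encodes the methyltransferase of the Polycomb repressive complex that modifies histone H3. Both lines were untreated, were at passages 10 to 15 and were grown in RPMI with 10% fetal bovine serum, and each gave 3 libraries of polyadenylated RNA described as biological replicates. The labels do not say whether the 3 came from separate cultures, so p-values measure only the spread between these libraries.

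Every gene symbol starting with IGKV or IGLV in the 6 per-library expression tables was a member, whether it had a row of its own or shared one. This gave 178 segments, 102 kappa and 76 lambda, of 56584 named symbols. A library held between 168 and 176 rows naming a segment, and 0 rows named segments of both chains. Levels are in FPKM, fragment numbers scaled to transcript length and to the mapped fragments of the library, so levels of different segments are compared per length. The absolute depth is unknown, because the tables hold no counts.

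An antibody light chain is either kappa or lambda. During B-cell development the RAG1 and RAG2 recombinase joins a variable (V) segment to a joining (J) segment of the same locus, and the joined exon is spliced to a constant gene, IGKC for kappa or an IGLC gene for lambda. A B cell normally makes a single kind of light chain, and the V segment it has joined is inherited by its daughter cells, so that V segment usage is commonly used to follow B-cell clones. The human kappa locus holds a proximal V cluster and an inverted distal copy of it, whose segments carry a D in their names, and orphons are V segments lying outside the loci.

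Because proximal and distal copies are nearly alike, the V exons of several leading segments are shown first, from the GENCODE v29 annotation and the GRCh38 genome, read 5′ to 3′ on the coding strand, with capitals marking the bases that differ from the partner named with each. The tables themselves use hg19, and positions from the separate builds were kept apart. IGKV1D-16 (chr2:90100443-90100738, plus strand) was high in all LY19Y646F libraries and is shown with its proximal copy IGKV1-16 (chr2:89099859-89100154, minus strand), which was high in replicate 3 alone. Their V exons had 8 mismatches over 296 bases.
IGKV1-16: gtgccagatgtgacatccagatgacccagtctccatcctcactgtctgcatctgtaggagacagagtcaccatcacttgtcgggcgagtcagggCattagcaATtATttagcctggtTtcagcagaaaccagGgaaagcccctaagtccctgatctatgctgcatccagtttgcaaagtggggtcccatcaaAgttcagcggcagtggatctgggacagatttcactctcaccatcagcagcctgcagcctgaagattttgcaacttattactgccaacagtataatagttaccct
IGKV1D-16: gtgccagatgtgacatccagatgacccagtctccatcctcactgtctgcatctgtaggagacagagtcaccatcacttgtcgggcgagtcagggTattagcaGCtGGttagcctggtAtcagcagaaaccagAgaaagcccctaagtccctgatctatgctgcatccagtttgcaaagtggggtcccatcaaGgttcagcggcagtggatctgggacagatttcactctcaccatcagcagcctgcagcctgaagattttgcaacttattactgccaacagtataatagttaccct

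In LY19WT the highest segment was IGLV1-40 (chr22:22409973-22410272, plus strand), which shared its table row with IGLV1-50 (chr22:22327507-22327806, plus strand) in every LY19WT library. The first 300 bases of each V exon are given, with 15 differing bases in capitals. Over the whole exons the identity was 93.9%.
IGLV1-40: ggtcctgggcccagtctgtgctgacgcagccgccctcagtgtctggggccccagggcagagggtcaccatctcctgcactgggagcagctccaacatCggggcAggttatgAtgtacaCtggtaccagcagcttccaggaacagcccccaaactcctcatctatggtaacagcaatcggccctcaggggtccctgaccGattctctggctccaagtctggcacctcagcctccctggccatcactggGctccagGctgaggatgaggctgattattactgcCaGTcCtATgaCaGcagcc
IGLV1-50: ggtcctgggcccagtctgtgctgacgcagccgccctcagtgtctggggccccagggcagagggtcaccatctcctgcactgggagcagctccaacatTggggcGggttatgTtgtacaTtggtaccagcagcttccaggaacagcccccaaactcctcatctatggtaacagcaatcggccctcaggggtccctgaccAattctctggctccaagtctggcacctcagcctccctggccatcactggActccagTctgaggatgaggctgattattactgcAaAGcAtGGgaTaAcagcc

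The kappa V exon of LY19WT that stood highest outside the row of the constant gene was IGKV1-33 (chr2:89268001-89268296, minus strand). Its distal copy IGKV1D-33 had 0 mismatches, so a single sequence stands for both.
IGKV1-33: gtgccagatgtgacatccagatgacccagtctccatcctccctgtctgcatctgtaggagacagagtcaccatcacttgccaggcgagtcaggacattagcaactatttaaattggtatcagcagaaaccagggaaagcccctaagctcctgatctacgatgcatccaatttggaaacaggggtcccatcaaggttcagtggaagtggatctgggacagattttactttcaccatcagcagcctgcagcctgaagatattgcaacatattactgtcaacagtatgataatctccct

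The reads were 85 bases long, and read-length windows of the annotated transcripts were compared to see which reads could come from more than 1 segment. Of the 323 windows of IGLV1-40, 14.2% were also present in IGLV1-50. For IGKV3-20, 25.3% of windows were present in IGKV3D-20, and for IGKV1-16, 24.5% were present in IGKV1D-16. All 298 windows of IGKV1-33 were present in IGKV1D-33, so no window is particular to IGKV1-33, while 83.7% of the windows of IGKV1D-33 were present in IGKV1-33. Of 100 kappa segments with a transcript, 87 shared at least 1 window with another light chain segment and 46 shared at least 50% of their windows. Of 76 lambda segments, 11 shared a window and 0 shared at least 50%. Values of single kappa segments are therefore uncertain between near-identical copies, to a degree that depends on the pair. No window was shared between IGKV3-20 and IGKV3-15 or IGKV1-16 (0.0%).

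**Figure D1:**
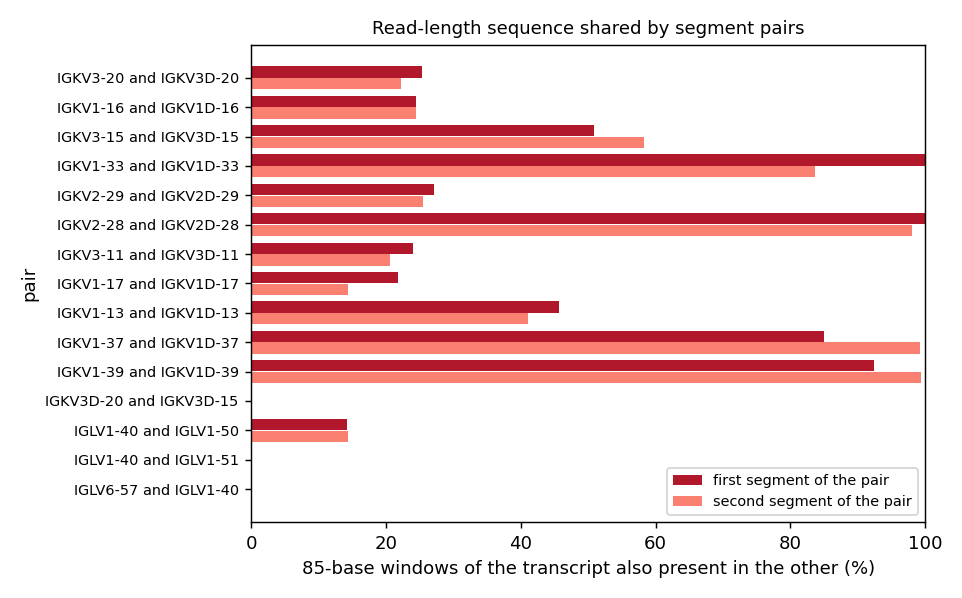
Percent of the 85-base windows of a segment's annotated transcript that also occur in the transcript of the other segment of the pair, for each segment of 15 pairs (horizontal axis, percent). The pairs IGKV1-33 with IGKV1D-33 and IGKV2-28 with IGKV2D-28 share all windows of the first segment, while IGKV3-20 with IGKV3D-20 stands at 25.3%.

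Lambda rows had the higher sum in LY19WT and kappa rows in LY19Y646F. The rows naming a kappa segment summed to 76.5, 76.2 and 66.0 FPKM in LY19WT replicates 1 to 3, while the sums were 2011, 4693 and 5548 FPKM in replicates 1 to 3 of LY19Y646F. All LY19Y646F libraries lay above all LY19WT libraries, although replicate 1 of LY19Y646F was the lowest of its line. That rank rests on rows with a gene name: with the unnamed rows over the locus added, a choice made after seeing the data, the LY19Y646F sums were 26426, 4846 and 5700 FPKM. The means of the named rows were 72.9 ± 5.95 FPKM (SD, n = 3) and 4084 ± 1845 FPKM (SD, n = 3), a ratio of 56.0. The LY19WT sums include the row of the constant gene IGKC, which also names a V segment there. In LY19Y646F the IGKC row named no V segment and is not in the sums, so the ratio compares unlike rows. The rows naming a lambda segment summed to 448, 344 and 451 FPKM in LY19WT and to 47.9, 40.7 and 54.2 FPKM in LY19Y646F. The order was the reverse of that for kappa, again with no overlap, with a mean of 414 ± 61.2 FPKM in LY19WT and of 47.6 ± 6.74 FPKM in LY19Y646F (SD, n = 3).

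The kappa share of the light chain sum was 14.6%, 18.1% and 12.8% in LY19WT and 97.7%, 99.1% and 99.0% in LY19Y646F. The difference was 83.5 percentage points. On the log2(sum + 1) scale kappa was higher in LY19Y646F by 5.67 and lambda differed by -3.09. For all 3 measures the exact two-sided permutation test gave p = 0.1, the smallest value that 3 libraries against 3 can give. In bulk RNA, fewer cells with a given light chain and less of its RNA per cell cannot be told apart.

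**Figure D2:**
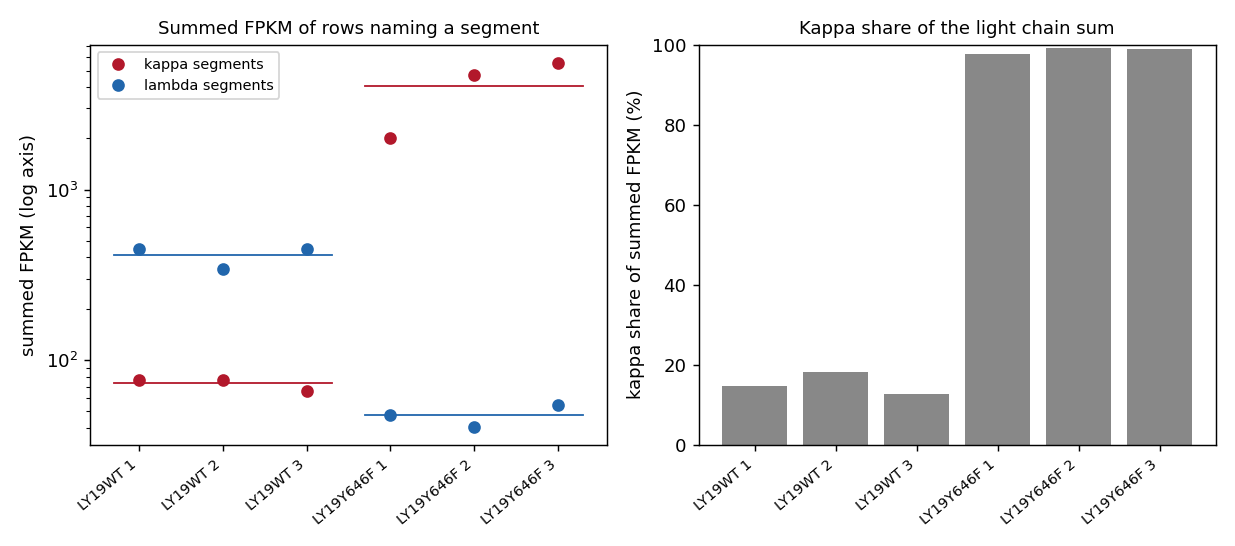
Left, summed FPKM of the rows naming a kappa or a lambda segment in each library on a log axis, with lines at the means of the 3 libraries of a line. Right, the kappa share of the sum in percent, which lies between 12.8% and 18.1% in LY19WT and between 97.7% and 99.1% in LY19Y646F.

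The LY19WT sums depended on how rows holding several genes were treated. The highest kappa row of each LY19WT library was the row of the constant gene, which named IGKC together with the V segment IGKV1-13 and several J segments, at 54.3, 45.5 and 39.4 FPKM. Without rows naming a constant gene, a choice made after seeing the data, the kappa share of LY19WT fell to 4.70%, 8.20% and 5.57%, and the log2 difference of the kappa sum was 7.10 in place of 5.67. With the unnamed rows over the loci added it was 6.93. With only rows whose symbols are all V or J segments, the kappa share of LY19WT was 49.3%, 8.87% and 54.2%, since the IGLV1-40 row of replicates 1 and 3 also names pseudogenes or other transcripts and drops out. With only rows naming a sole symbol it was 49.3%, 62.9% and 54.2%, against 98.8% to 99.9% in LY19Y646F. The kappa difference was 7.10 and 6.35 and the lambda difference -1.53 and -1.10 on the log2 scale under the last 2 rules, and no LY19WT library overlapped a LY19Y646F library in the kappa share under any of these choices.

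Among the kappa segments of LY19Y646F, IGKV3-20 led, annotated as a functional V gene on chromosome 2. It stood at 1211, 3889 and 3716 FPKM in LY19Y646F and at 0.365, 0.166 and 1.20 FPKM in LY19WT. Every LY19Y646F library was far above every LY19WT library, and replicate 1 was the lowest of its line, but there an unnamed row of 24258 FPKM also covered the position of IGKV3-20. The log2(FPKM + 1) difference was 10.74 ± 0.55 (SE; limma, adjusted p = 0.000182). In replicate 3 of LY19Y646F the value belongs to a row that names IGKV3-20 together with IGKV3-15. IGKV3-15 on its own was listed at 0.0 and 1.82 FPKM in replicates 1 and 2, so its 3716 FPKM in replicate 3 is that shared row, and its difference did not pass the test (limma, adjusted p = 0.397).

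The distal copy IGKV3D-20 stood at 436, 427 and 360 FPKM in LY19Y646F and at 0.0743, 0.0 and 0.244 FPKM in LY19WT. It was high in every LY19Y646F library, with a log2 difference of 8.53 ± 0.15 (SE; limma, adjusted p = 1.93e-05). In replicate 3 its row also named IGKV3D-11 and IGKV3D-15. IGKV3D-15 was listed at 0.0 FPKM in all LY19WT libraries and at 113, 82.4 and 360 FPKM in LY19Y646F, a log2 difference of 7.24 ± 0.58 (SE; limma, adjusted p = 0.000841). Its LY19Y646F values sat in a row with IGKV3D-11 in replicates 1 and 3. IGKV3D-11 itself was listed at 0.0 FPKM in replicate 2 and was not called (limma, adjusted p = 0.179).

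IGKV1D-16 stood at 222, 268 and 229 FPKM in LY19Y646F and at no more than 0.128 FPKM in LY19WT. Its log2 difference was 7.82 ± 0.13 (SE; limma, adjusted p = 1.93e-05), with LY19Y646F higher in all libraries. The proximal copy IGKV1-16 behaved unevenly: it was listed at 0.0, 0.0 and 1220 FPKM in LY19Y646F and at 0.0513, 0.373 and 0.417 FPKM in LY19WT. Only replicate 3 of LY19Y646F was high, the lines overlapped, and the difference was not called (log2 difference 3.07 ± 3.02, SE; limma, adjusted p = 0.495). In replicates 1 and 2 IGKV1-16 was named in a row with IGKV1-12 and IGKV1-17, and in both of these libraries a row without any gene name covered its position. IGKV1D-17 shared the IGKV1D-16 row in replicates 1 and 2 and was at 0.369 FPKM alone in replicate 3; it was not called (limma, adjusted p = 0.147).

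Segments were also joined into blocks wherever they share a row in any library, with each row counted once. The block of IGKV3-20 and IGKV3-15 then differed by 10.74 on the log2 scale (limma, adjusted p = 0.000109). The block of IGKV3D-11, IGKV3D-15 and IGKV3D-20 differed by 8.73 (limma, adjusted p = 2.15e-05). The block of IGKV1D-16, IGKV1D-17, IGKV1D-43 and IGKV1D-8 differed by 7.80 (limma, adjusted p = 9.84e-06). LY19Y646F was higher in each of these 3. The block of IGKV1-12, IGKV1-16 and IGKV1-17 stayed at 0.0 FPKM in replicates 1 and 2 of LY19Y646F and at 1221 FPKM in replicate 3, and it was not called (log2 difference 3.07 ± 2.96, SE; limma, adjusted p = 0.474).

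**Figure D3:**
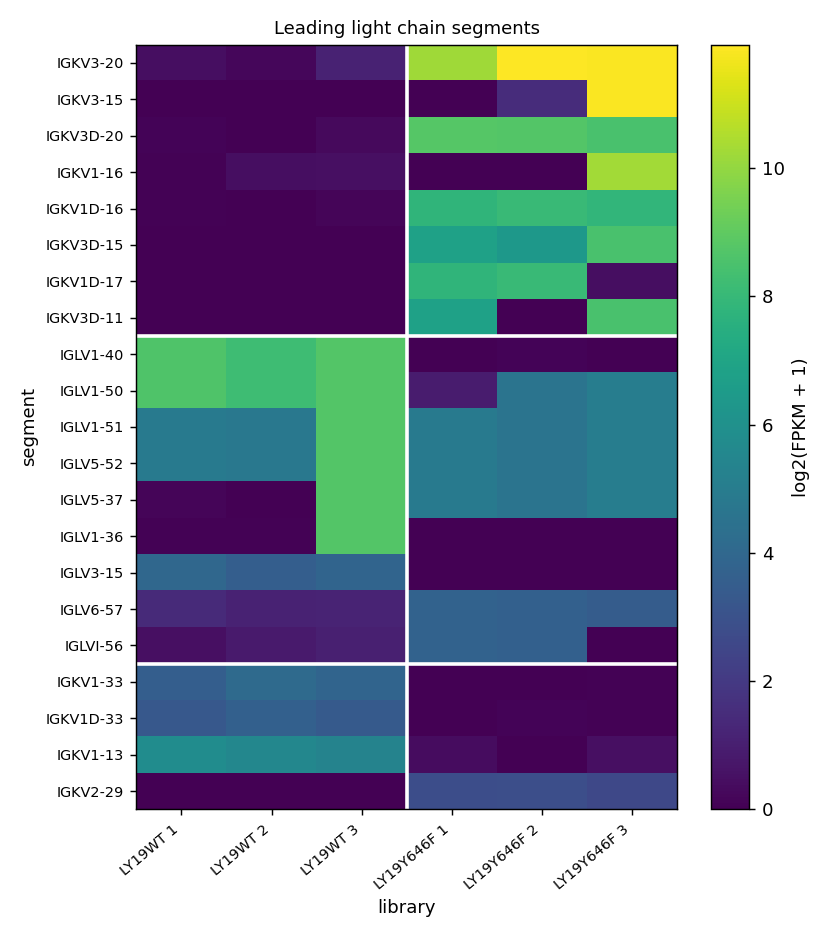
Level of the leading kappa segments, the leading lambda segments and, in the lowest 4 rows, kappa segments chosen after their values were seen, in each library (colour, log2(FPKM + 1)). IGKV3-20 is bright in the 3 LY19Y646F libraries and IGLV1-40 in the 3 LY19WT libraries, while segments such as IGKV1-16 and IGLV1-36 are bright in a single library.

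Kappa rows of both clusters were higher in every LY19Y646F library. Proximal rows summed to 66.6, 63.3 and 55.1 FPKM in LY19WT, the IGKC row included, and to 1220, 3903 and 4946 FPKM in LY19Y646F. Distal rows summed to 9.62, 12.6 and 10.5 FPKM in LY19WT and to 778, 784 and 597 FPKM in LY19Y646F. All 35 segments of the IGKV2 family were listed at 0.0 FPKM in all LY19WT libraries, whereas 20, 21 and 20 of them were above 0 in the LY19Y646F libraries, with row sums of 24.8, 18.3 and 14.3 FPKM. IGKV2-29, annotated as a pseudogene and named here after its values were seen, led them at 6.17 (in a row with IGKV2-28 and IGKV2-36), 6.25 and 4.99 FPKM (limma, adjusted p = 0.000263). Altogether 22 kappa and 5 lambda segments were listed at 0 throughout LY19WT and above 0 throughout LY19Y646F, beside 2.07% of all named symbols, and 1 kappa and 4 lambda segments showed the reverse, beside 1.39%.

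LY19WT had kappa rows of its own. IGKV1-33, chosen after its values were seen, stood at 10.9, 16.3 and 13.2 FPKM in LY19WT and at 0.0189, 0.0 and 0.0400 FPKM in LY19Y646F. Its copy IGKV1D-33 stood at 8.66, 11.6 and 9.40 FPKM in LY19WT and at no more than 0.0676 FPKM in LY19Y646F. Both were lower in every LY19Y646F library, with log2 differences of -3.81 ± 0.19 and -3.37 ± 0.17 (SE; limma, adjusted p = 0.000182 and 0.000179). The V exons of this pair are identical, so the split of their values between the copies is uncertain. IGKV1-13, also chosen after its values were seen, was called lower (log2 difference -5.26; limma, adjusted p = 0.000105), but in LY19WT its value is that of the IGKC row. When symbols sharing a row were joined, that block was higher in LY19Y646F by 6.63 (limma, adjusted p = 1.82e-05).

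Among the lambda segments, IGLV1-40 led LY19WT (hg19 chromosome 22, 22764098 to 22764614, annotated as a functional V gene). It stood at 397, 298 and 428 FPKM in LY19WT and at 0.0, 0.0803 and 0.0 FPKM in LY19Y646F. All LY19WT libraries were high and all LY19Y646F libraries near 0, with a log2 difference of -8.50 ± 0.17 (SE; limma, adjusted p = 2.90e-05). The same row named IGLV1-50 in all 3 LY19WT libraries, and in replicate 3 it named 8 symbols, among them IGLV1-36, IGLV1-51, IGLV5-37 and IGLV5-52. The 428 FPKM listed for those 4 segments in replicate 3 is therefore the IGLV1-40 row. The authors' deposited table gave IGLV1-40 by itself at 405 FPKM in LY19WT and 0.0299 FPKM in LY19Y646F.

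Outside that library the merged row of IGLV1-51 and IGLV5-52, which also names the pseudogene BMS1P20, was level between the lines. It stood at 28.2 and 26.5 FPKM in replicates 1 and 2 of LY19WT. In LY19Y646F it stood at 28.3, 22.9 and 32.7 FPKM, which was 59.1%, 56.1% and 60.3% of the lambda sum. Neither segment was called (log2 difference -1.29; limma, adjusted p = 0.459), and without replicate 3 of LY19WT the difference was 0.016. IGLV5-37, at 0.105 and 0.0 FPKM in replicates 1 and 2 of LY19WT, shared the BMS1P20 row in all LY19Y646F libraries and was not called (limma, adjusted p = 0.625), but it was higher in LY19Y646F by 4.77 without replicate 3 of LY19WT (limma, adjusted p = 0.00143). IGLV1-36 was at 0.0 FPKM throughout LY19Y646F and at no more than 0.0475 FPKM in replicates 1 and 2 of LY19WT, and it was not called (limma, adjusted p = 0.459). IGLV1-50 was called lower (log2 difference -5.01 ± 1.16, SE; limma, adjusted p = 0.0317). That call was lost without any 1 of the LY19WT libraries, without replicate 2 of LY19Y646F and with the replicate number as a block, with adjusted p from 0.0607 to 0.0989.

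The pseudogene IGLV3-15, alone in its row in every library, stood at 14.8, 10.9 and 13.4 FPKM in LY19WT and was listed at 0.0 FPKM in all LY19Y646F libraries. Its log2 difference was -3.80 ± 0.17 (SE; limma, adjusted p = 0.000134). IGLV6-57 went the other way, at 1.71, 1.23 and 1.29 FPKM in LY19WT, against 12.4, 11.8 and 10.1 FPKM in LY19Y646F. It was higher in every LY19Y646F library by 2.37 ± 0.17 on the log2 scale (SE; limma, adjusted p = 0.000572), the only lambda segment called higher among the 13 tested. In replicates 1 and 2 of LY19Y646F its row also named the pseudogene IGLVI-56, which was listed at 0.0 FPKM in replicate 3 and was not called (limma, adjusted p = 0.345). The IGLV6-57 rows spanned 748 to 1335 bases in LY19WT. In LY19Y646F they spanned 10024, 5260 and 9745 bases, so the difference compares rows of unlike extent in replicate 3 too.

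**Figure D4:**
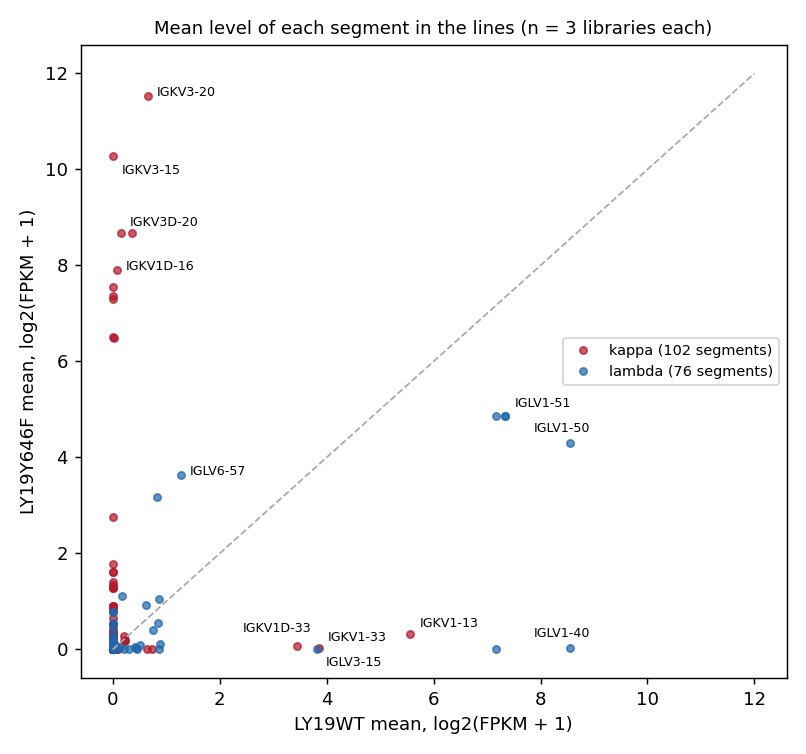
Mean of the 3 LY19WT libraries (horizontal axis) against the mean of the 3 LY19Y646F libraries (vertical axis), both as log2(mean FPKM + 1), for 102 kappa and 76 lambda segments, with a dashed line of equal values. IGKV3-20 and other kappa segments lie along the vertical axis, IGLV1-40 lies along the horizontal axis, and IGLV1-51 owes its position to the shared row of LY19WT replicate 3.

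Of the 178 segments, 70 were listed at 0 in all libraries and 35 reached the mean of 0.5 FPKM required for testing, 22 kappa and 13 lambda. With limma and adjustment over all 17420 symbols tested, 14 of the 35 were called, beside 26.1% of all symbols. Of these, 8 were higher in LY19Y646F (7 kappa and 1 lambda), beside 13.2% of all symbols, and 6 were lower (3 kappa and 3 lambda), beside 13.0%. The libraries of the lines did not overlap for 23 of the 35, 16 higher and 7 lower, beside 44.7% of all symbols. A segment can pass the level filter through the line in which it is high, so these counts describe the 35 and not all members. Joined into blocks, 12 of 21 were called, 8 higher and 4 lower, beside 32.4% of all blocks.

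Libraries of a line resembled each other more than libraries of different lines. Across the 178 segments, Pearson's r of log2(FPKM + 1) was 0.802 to 0.989 within LY19WT and 0.624 to 0.801 within LY19Y646F, and 0.104 to 0.253 between lines. By blocks (160 points), r was 0.982 to 0.992 within LY19WT, 0.875 to 0.980 within LY19Y646F and 0.379 to 0.453 between lines. Spearman's rho by segment was 0.793 to 0.868, 0.691 to 0.724 and 0.171 to 0.314 in the same order. These are descriptions, since the segments share libraries and rows and many sit at 0. Segments at 1 FPKM or more in both libraries of a pair were counted among those reaching it in either. In LY19WT these were 9 of 13 for replicates 1 and 2, 10 of 15 for 1 and 3, and 10 of 17 for 2 and 3. In LY19Y646F they were 12 of 32, 14 of 28 and 13 of 29 in the same order.

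**Figure D5:**
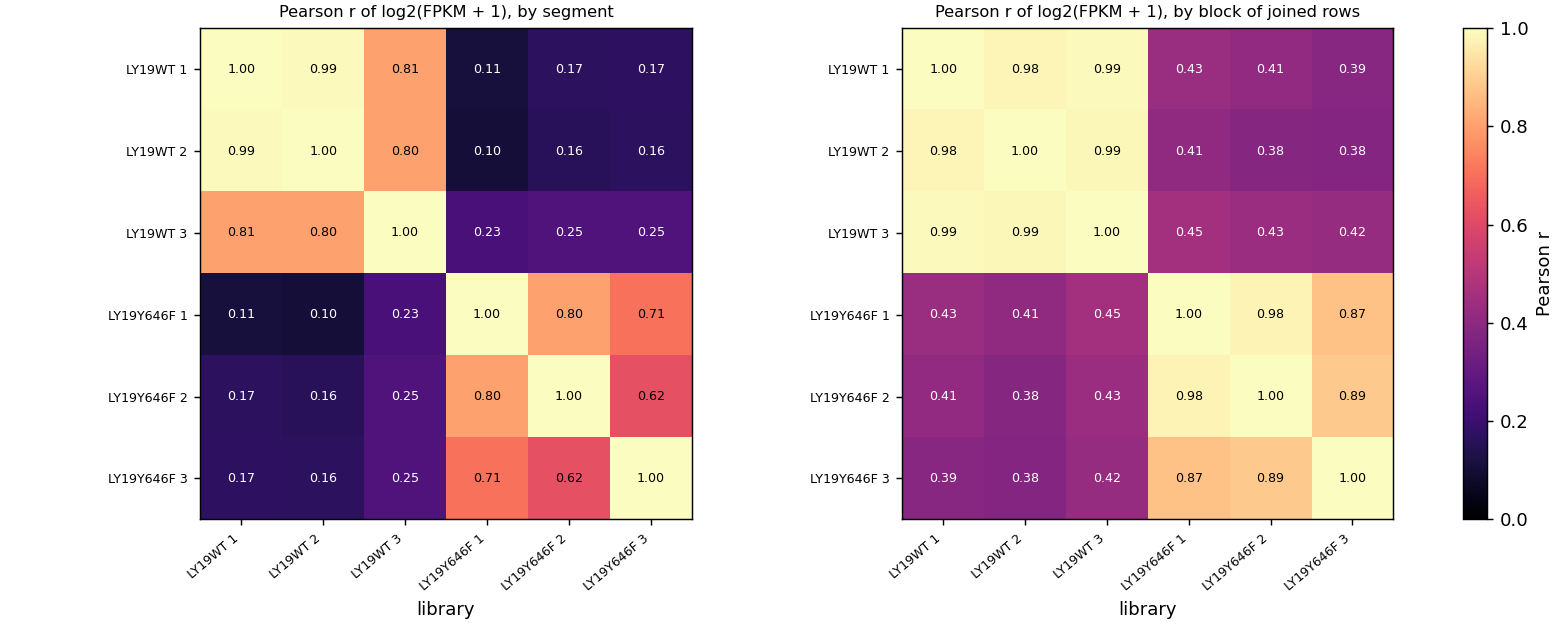
Pearson's r of log2(FPKM + 1) between each pair of libraries, by segment (left, 178 segments) and by blocks of segments joined where they share a row (right, 160 blocks). The within-line squares are the brightest in both panels, and joining rows raises the within-line values of LY19WT replicate 3 from about 0.80 to 0.99.

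In the authors' deposited table of line values, 24 segments were given, 6 kappa and 18 lambda. For 23 of them the direction was that of the per-library tables, all 6 kappa and 17 of 18 lambda, and 22 were under 2 FPKM in both lines in the authors' deposited table. IGLV3-15 was 10.6 FPKM in LY19WT and 0.0 FPKM in LY19Y646F in the authors' deposited table. IGKV3D-15 was only 0.361 FPKM in LY19Y646F in the authors' deposited table, far below its 82.4 to 360 FPKM in the per-library tables. It was the only leading kappa segment given there. All 6 kappa segments given stood at 0.0 FPKM in LY19WT and at no more than 0.578 FPKM in LY19Y646F there. Their shared direction therefore cannot check the high levels of the leading kappa segments in the per-library tables.

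The constant genes were followed next. The row of IGKC, the kappa constant gene, stood at 54.3, 45.5 and 39.4 FPKM in LY19WT and at 4908, 4838 and 4283 FPKM in LY19Y646F, a log2 difference of 6.63 ± 0.14 (SE; limma, adjusted p = 2.90e-05). The lambda constant genes IGLC2, IGLC3 and IGLC7 shared a row at 902, 416 and 346 FPKM in LY19WT and at 290, 30.0 and 0.0 FPKM in LY19Y646F. Their libraries did not overlap, but the difference was not called (log2 difference -4.61 ± 2.13, SE; limma, adjusted p = 0.188). IGLC1 was at 4.41, 2.15 and 346 FPKM in LY19WT, against 290, 30.0 and 0.0 FPKM in LY19Y646F, with overlap and no call (limma, adjusted p = 0.970). It shared a row with other genes in every library. In LY19WT replicate 3 and all LY19Y646F libraries its values equal those of IGLC2, IGLC3 and IGLC7, so it was not measured apart from them there. The values of IGLL5 equal those of IGLC1 in all libraries.

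Of 39 listed genes of light chain recombination, assembly and control, 10 were called higher in LY19Y646F, beside 13.2% of all symbols, 11 were called lower, beside 13.0%, and 18 were not called, with a median log2 difference of 0.0071 beside 0.0022 for all symbols. The recombinase genes were among those lower. RAG1 stood at 151, 182 and 178 FPKM in LY19WT and at 0.499, 1.08 and 0.504 FPKM in LY19Y646F, and RAG2 at 65.1, 80.8 and 84.2 FPKM against 0.516, 0.0 and 0.580 FPKM (limma, adjusted p = 4.51e-05 and 0.000105). DNTT, which adds untemplated bases at the joins, was lower by 6.77 ± 0.27 on the log2 scale in every LY19Y646F library (SE; limma, adjusted p = 9.94e-05). VPREB1 and IGLL1, which pair with the heavy chain in place of a light chain before light chain joining, stood at 180 to 410 and 239 to 1628 FPKM in LY19WT and at no more than 1.84 and 3.74 FPKM in LY19Y646F (limma, adjusted p = 0.000297 and 0.00306). Transcription factors of the list went both ways. IRF8, POU2F2 and IKZF3 were higher in LY19Y646F by 7.27, 4.78 and 4.91 on the log2 scale (limma, adjusted p = 7.66e-05, 4.77e-05 and 0.000135). MEF2B, IRF4, IKZF1 and POU2F1 were also called higher. Of the 39 genes, 18 shared a row with other symbols in some library, so their values there are not of a single gene. MEF2B did so in all 6 libraries, IGLL1 in 4, and RAG1 and IKZF3 in 3 each. EBF1, PAX5, MEF2C and NFKB1 were called lower, with log2 differences of -2.845, -1.852, -1.799 and -1.352 (limma, adjusted p = 9.345e-05, 0.003679, 0.008024 and 0.0008149).

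Markers of B-cell stages moved with the light chains. The 7 precursor B-cell markers, which overlap the genes just named, summed to 1030 to 2642 FPKM in LY19WT and to 2.21 to 6.02 FPKM in LY19Y646F, with CD34 at or under 0.0239 FPKM in all libraries. The 6 B-cell markers summed to 354 to 545 FPKM and to 582 to 935 FPKM, and MS4A1, which encodes CD20, stood at 0.0688 to 0.140 FPKM in LY19WT and at 83.1 to 118 FPKM in LY19Y646F. The 4 plasma-cell markers summed to 153 to 170 FPKM and to 35.4 to 45.7 FPKM, while IRF4 among them was higher in LY19Y646F. The 5 myeloid markers summed to 11.4 to 13.9 FPKM in LY19WT, mostly LYZ, and to 0.374 to 0.723 FPKM in LY19Y646F. The 5 T-cell markers summed to 12.7 to 16.7 FPKM over all libraries, mostly TRAC, and the other 4 were at 0 in all LY19WT libraries. The 4 epithelial or fibroblast markers summed to no more than 0.149 FPKM in any library. The part of these differences in the light chain result was not tested. The 10 highest rows took 27.5% of all FPKM in LY19WT replicate 3 and 5.71% to 9.38% in the other libraries.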

How the data were processed

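The series holds 6 per-library tables and a table of line values. Reads were processed with STAR 2.5.3a, Cufflinks 2.2.1 and Cuffdiff 2.2.1 on hg19, per the submitters' processing notes, and the authors deposited FPKM, which relate fragments to transcript length and mapped fragments. Each deposited table holds loci assembled in that library, so a segment can share a row with others. The authors' deposited line table also gives log2 fold changes, which were not tested. A symbol received the sum of the rows naming it, and chain sums counted each row once. Symbols with a mean of at least 0.5 FPKM were tested as log2(FPKM + 1), which understates changes of low genes, in limma 3.58.1 under R 4.3.3, using eBayes with a mean trend and two-sided p-values adjusted by Benjamini-Hochberg at a threshold of 0.05. The fit was tested on simulated data. Sums were compared by exact permutation over libraries with scipy 1.17.1. Sequences and read-length windows came from GENCODE v29 on GRCh38, where 177 of 178 symbols matched. The sequence of 1 leading kappa pair is not reported here. The members and gene lists were chosen with earlier results of these data known. Named segments are the 8 kappa and 8 lambda symbols with the highest mean in either line, and exceptions are stated. Alternatives covered pseudocount, filter, rows, scaling, replicate block, library weights and left-out libraries.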

Additional observations from a re-analysis of the deposited data

Results flagged for a closer look

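Rows without a gene name were not used in the comparisons, and in LY19Y646F some of them lay over the kappa locus, where LY19WT had 0 such rows. The highest was 24258 FPKM in LY19Y646F replicate 1, 94.9 FPKM in replicate 2 and 141 FPKM in replicate 3. The row of replicate 1 lay at hg19 chromosome 2, 89278158 to 89471717, and covered the positions of 17 kappa segments, among them IGKV3-20, IGKV3-15 and IGKV1-16. Over the lambda locus both lines had rows without a gene name. These summed to 136, 118 and 38.0 FPKM in LY19WT and to 59.5, 91.9 and 147 FPKM in LY19Y646F. In each LY19Y646F library this exceeded the sum of the named lambda rows (47.9, 40.7 and 54.2 FPKM). With all such rows over the loci added, a choice made after seeing the data, the kappa sum of LY19Y646F was 26426, 4846 and 5700 FPKM, which puts replicate 1 highest in place of lowest. The kappa share was then 99.6%, 97.3% and 96.6% in LY19Y646F and 11.6%, 14.2% and 11.9% in LY19WT.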

How the results depend on the processing

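The 3 sums and shares kept their direction under every alternative run, those chosen after seeing the data included, with p = 0.1 by exact permutation, or 0.2 with a library left out, the smallest possible in each case. With unnamed rows added, the log2 difference of the lambda sum was -1.83 in place of -3.09. The count of called segments was 14. It was 26 with no level filter (108 tested) and 5 with sole-symbol rows (12 tested), where the pathway list gave 13 calls in place of 21, and 13 to 15 with a library left out. Library weights gave 7300 called symbols in place of 4551. Differences changed sign for IGLV1-51 and IGLV5-52 (from -1.97 to 0.016 with a library left out, the last without LY19WT replicate 3), for IGLV5-37 (-3.73 as a block) and for IGKV1-13 (6.63 as a block). Correlations of deviations from the line means were 0.166, 0.0338 and 0.105 for libraries of the same replicate number. They were -0.128 to 0.0462 for libraries of different numbers. Replicates 1 and 3 of each line correlated best with their own number, and replicate 2 of each line did not. Whether the numbers mark shared handling of the libraries was not tested. With the replicate block, 12 segments were called, and the exact sign-flip test of the sums gave p = 0.25, its smallest value. Depth is unknown, so no detection limit was set for segments listed at 0.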

Other observations

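The orphon segments, which lie outside the light chain loci, summed to 1.15, 1.92 and 0.839 FPKM in LY19WT and to 12.7, 5.44 and 9.39 FPKM in LY19Y646F. Rows shared with other transcripts held 0.498, 1.56 and 0.430 FPKM of the LY19WT sums and 3.46 FPKM of LY19Y646F replicate 3. IGKV2OR2-10 and IGKV2OR2-8 had equal values in every library, at 3.61 FPKM each in LY19Y646F replicate 1. IGKV3OR2-268 was the only orphon of 4 tested that was called, and it was higher in LY19Y646F by 1.56 ± 0.26 on the log2 scale (SE; limma, adjusted p = 0.0101). Of its read-length windows, 91.7% were also present in other light chain segments.

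A few lambda segments were low in both lines. IGLV11-55 stood at 0.362 to 1.06 FPKM in LY19WT and at 0.882 to 1.30 FPKM in LY19Y646F, with overlap and no call (limma, adjusted p = 0.548). IGLV7-46 stood at 0.496 to 1.08 and at 0.375 to 0.543 FPKM, also with overlap and no call (limma, adjusted p = 0.328).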
